A study of Mus musculus with 27 samples.

Results

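Osteoblast cultures of mouse calvaria, the flat bone of the skull vault, were compared between the middle days of differentiation (days 8, 10 and 12) and the late days (days 14, 16 and 18). The comparison held 18 of the 27 expression profiles of the series, with 9 profiles in each period. The samples were chosen by the day in their labels, and no measured value entered the choice. The 3 profiles of a day carried 1 barcode and came from different sequencing lanes, so their estimated counts were summed. This left 6 libraries, 3 in each period, and each library is a different day of culture rather than a repeat of the same day.

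All samples came from the strain C57BL/6J-Col3.6 CFP, in which a fragment of the type I collagen promoter drives a cyan fluorescent protein (CFP). Neonatal mice 5 to 9 days old gave the calvariae, and cells released by enzyme digestion were grown for 4 days and sorted for CFP before differentiation began. Both periods were then cultured in medium with ascorbic acid and β-glycerol phosphate, and the labels give no difference between them but time. No treated, mutant or undifferentiated control was part of the comparison, and the number of cultures or animals behind a day was not given in the labels. The sort was made once, before the time course, so cells that arose later were not removed by it.

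Osteoblasts build bone in stages. They first lay down a matrix of type I collagen, then load it with proteoglycans and acidic phosphoproteins, and finally deposit calcium phosphate in it. Osteocalcin, bone sialoprotein and the enzymes that release phosphate belong to the last stage, and some osteoblasts then become osteocytes, the cells embedded in bone. Calvarial cultures can also hold adipocytes, which share a progenitor with osteoblasts, and macrophages of the bone tissue.

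The labelled cell type was checked against its markers. All 10 osteoblast markers passed the count filter, and their summed level was 17477 to 27973 TPM on days 8 to 12 and 29556 to 37011 TPM on days 14 to 18. Levels are given as TPM, a unit that corrects for gene length and library size, after scaling every profile by its upper quartile and averaging over a day's 3 profiles. Sparc, an abundant calcium-binding matrix protein, was at 11449.7, 14349 and 19518 TPM on days 8, 10 and 12 and 22577, 21780.3 and 27451 TPM on days 14, 16 and 18. Sparc thus made up most of the sum in every library, and the sum says little about the other markers. Bglap, Ibsp, Alpl and Sp7 were low on day 8, and their levels are given below. The T cell markers summed to at most 0.156 TPM and the neutrophil markers to at most 1.99 TPM in any library, and none of these passed the filter. Glia and neural crest markers summed to 12.0 to 32.7 TPM on days 8 to 12 and 39.3 to 49.2 TPM on days 14 to 18, with Sox10 and Foxd3 below the filter. Adipocyte and macrophage markers were present in every library and are described with their gene groups. Library totals ran from 22470146 counts on day 10 to 62009116 on day 12. RSEM, the program behind the estimated counts, divides a read that fits several genes among them. Of the genes described below, this touched Bglap, Bglap2, Phospho1, Slc20a1, Vkorc1, Timp3, Igfbp4, Lgr5, Csf1r, Lyz1, Lyz2, Gstm1, Dbp, Dio2, Cyp2f2, Ifit1, Hmga2, Runx2 and Fbn1, so their values are less certain. Since RNA was taken from whole cultures, a lower level from fewer cells of a type and one from less RNA per cell cannot be told apart.

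The first question was which genes differed between the periods. In edgeR's quasi-likelihood test of late against middle libraries, 0 of 15210 tested genes were higher (0%) and 0 lower (0%) at a Benjamini-Hochberg adjusted p under 0.05, with a smallest adjusted p of 0.203. At an unadjusted p under 0.05, 1275 genes were higher (8.38%) and 1467 lower (9.64%). DESeq2 called 434 genes higher and 330 lower on the same libraries, and limma on log2 TPM called 0 with a pseudocount of 1 and 2 with a pseudocount of 0.1. In counts scaled to library size, all 3 late libraries lay above all 3 middle libraries for 1978 genes (13%) and below them for 2110 genes (13.9%). Without day 12, edgeR's test called 321 genes higher and 316 lower, without day 8 it called 1 higher, and without any other day 0. The test treats the days of a period as replicates, and these days were not alike. On the first principal component, which held 58.9% of the variance of log2 expression, the middle libraries stood at -86.8, -29.2 and 5.77 and the late libraries at 24.2, 33.2 and 52.8, each in order of day. The order followed the day, and the step between the periods was smaller than the steps inside the middle period.

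A straight line in day was therefore fitted to the same 6 libraries, an alternative that had been planned beside the test of periods. With edgeR's quasi-likelihood test of the line, 1266 of 15210 genes rose from day 8 to day 18 (8.32%) and 1216 fell (7.99%) at a Benjamini-Hochberg adjusted p under 0.05. The rises were 820 without day 16 and 790 without day 18, and the falls 566 without day 8, 780 without day 10, 775 without day 14 and 716 without day 18. These are totals of each fit. Of the 1266 rises, 713 were kept without day 18 and 1094 without day 12, the lowest and highest numbers. Of the 1216 falls, 443 were kept without day 8 and 977 without day 12. Of the 2482 genes called with all 6 days, 1926 also had late libraries that did not overlap the middle ones in the same direction. The periods split the same 6 ordered days, so this count is no separate test of the periods. In what follows, "rose" and "fell" refer to this test, and its adjusted p-values are given as the line's. Counts of called members in a list are to be read beside the shares over all tested genes, 8.32% rising and 7.99% falling. Counts of members whose periods did not overlap are to be read beside 13% above and 13.9% below. Each late minus middle difference is the log2 change fitted between the periods, with its standard error. For no gene did the difference between periods itself pass in edgeR's test, and the line does not separate a step after day 12 from a slow trend. A p-value here measures scatter of days around the line, since no day was sampled again.

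**Figure D1:**
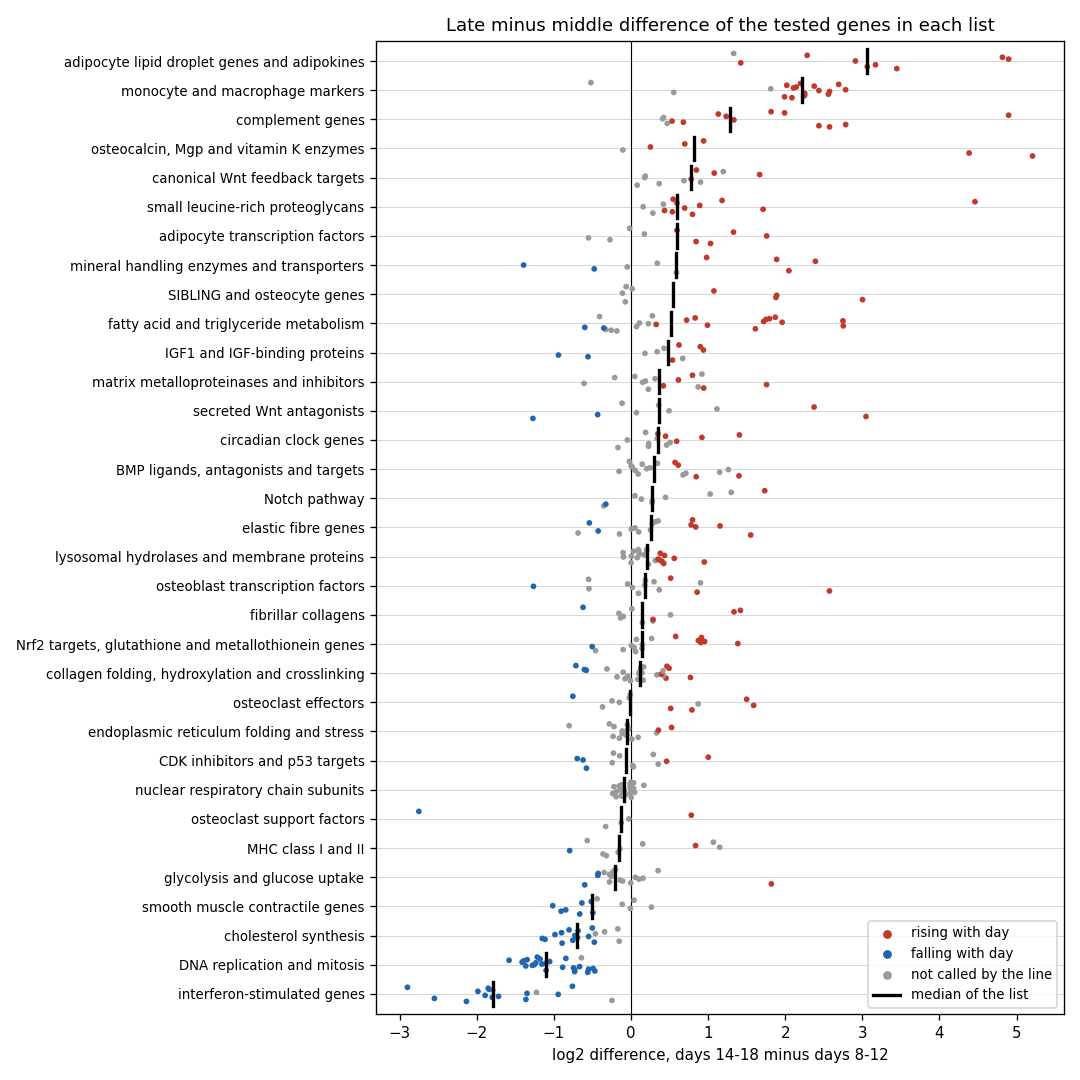
Log2 difference between the periods (late minus middle, x axis) for the tested genes of 33 lists (rows), ordered by the list's median (black bar). Red points rose and blue points fell with day in the line test, and grey points were not called. Lipid droplet, macrophage and complement genes lie furthest to the right, and interferon-stimulated and replication genes furthest to the left.

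Osteocalcin showed the largest late minus middle difference among the bone lists. Bglap, which encodes osteocalcin, the vitamin K-dependent calcium-binding protein of mature osteoblasts (chromosome 3, 88187423 to 88188386, minus strand, NCBIM37), was at 0.682 TPM on day 8, 1.88 and 6.08 on days 10 and 12, and 31.4, 143 and 208 on days 14, 16 and 18. Its paralog Bglap2 (chromosome 3, 88181658 to 88182621, minus strand) was at 3.55 TPM on day 8, 5.11 and 11.9 on days 10 and 12, and 31.0, 163 and 274 on days 14, 16 and 18. The late libraries lay above the middle ones for both genes, and the levels on days 16 and 18 were far above that on day 14. The late minus middle difference was 5.21 ± 0.94 for Bglap and 4.38 ± 0.81 for Bglap2 on the log2 scale (edgeR adjusted p 0.203 for each). In the line test the adjusted p was 0.000254 for Bglap and 0.000193 for Bglap2, and it stayed at 0.00237 or less for Bglap and 0.00203 or less for Bglap2 with any 1 day left out. The sequences of these neighbours are nearly identical and their reads were divided between them, so the split is uncertain. Their summed level was 4.23, 6.98 and 18.0 TPM on days 8, 10 and 12 and 62.5, 306 and 482 TPM on days 14, 16 and 18. In the RefSeq promoter window of Bglap, the core letters TGTGGT of a Runx site, searched on both strands, occur once, as the complement in capitals here, at chr3:88384573-88384618 (minus strand) of GRCm38.p6.
Bglap: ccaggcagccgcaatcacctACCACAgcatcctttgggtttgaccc
Of the genes with a promoter window, 15.9% hold these letters, so their presence here is a description only.

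Several genes of matrix mineralization rose as well. Ibsp, bone sialoprotein, which binds hydroxyapatite and starts crystal formation (chromosome 5, 104728190 to 104740488, plus strand), was at 0.650 TPM on day 8, 0.958 and 17.1 on days 10 and 12, and 18.1, 59.0 and 78.4 on days 14, 16 and 18. Its lowest late value was close to its day 12 value, and the line's adjusted p was 0.00276. Phospho1, the phosphatase that releases phosphate inside matrix vesicles, was at 1.54 TPM on day 8, 2.74 and 2.41 on days 10 and 12, and 4.93, 9.20 and 13.1 on days 14, 16 and 18. It differed by 2.05 ± 0.37 between the periods. From day 8 to day 12 it changed by 0.16 in log2 counts scaled to library size, less than its TPM values changed. By either measure most of its rise came after day 12 (line's adjusted p 0.00247). Smpd3, the neutral sphingomyelinase needed for skeletal mineralization, was at 0.231 TPM on day 8, 0.196 and 0.717 on days 10 and 12, and 0.618, 1.92 and 4.00 on days 14, 16 and 18, with an overlap between the periods and a line's adjusted p of 0.00298. Phex, the endopeptidase whose loss causes phosphate wasting, was at 1.64, 6.59 and 13.8 TPM on days 8, 10 and 12 and 18.9, 26.7 and 37.2 TPM on days 14, 16 and 18 (line's adjusted p 0.00465). Slc8a3, a sodium-calcium exchanger, was at 0.826 to 2.46 TPM on days 8 to 12 and 2.51 to 3.86 TPM on days 14 to 18 (line's adjusted p 0.00773). Slc20a1, a phosphate importer, fell from 29.2 TPM on day 8 to 8.40 on day 18 (line's adjusted p 0.0194), a call lost without day 8 (adjusted p 0.145) and without day 16. Of the 9 tested mineral handling genes of 10 listed, 4 rose and 2 fell, and the list's median difference was 0.59 against -0.02 over all tested genes. Both falls in this list, Slc20a1 and Enpp1, which makes the mineralization inhibitor pyrophosphate, were lost when day 8 or day 16 was left out, and that of Enpp1 also without day 10 or day 14.

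Some osteocyte genes rose from low levels. Dmp1, a phosphoprotein of early osteocytes (chromosome 5, 104631632 to 104643121, plus strand), was at 0.776 TPM on day 8, 1.55 and 1.35 on days 10 and 12, and 2.21, 5.20 and 6.54 on days 14, 16 and 18. The difference between the periods was 1.88 ± 0.43, and the line's adjusted p was 0.00261. Ptprz1, a receptor phosphatase, was at 1.58, 1.76 and 2.72 TPM on days 8, 10 and 12 and 3.55, 4.02 and 5.69 TPM on days 14, 16 and 18 (line's adjusted p 0.000612). In the list of SIBLING proteins (small integrin-binding ligand, N-linked glycoproteins) and osteocyte genes, 8 of 12 members passed the filter, 4 rose and 0 fell, and these 4 calls held with each of the 6 days left out in turn. Mepe, Dspp, Sost and Fgf23, which mark odontoblasts or mature osteocytes, did not pass the filter. Pdpn, an early osteocyte membrane protein, was at 105 to 124 TPM on days 8 to 12 and 111 to 118 TPM on days 14 to 18 and was not called.

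**Figure D2:**
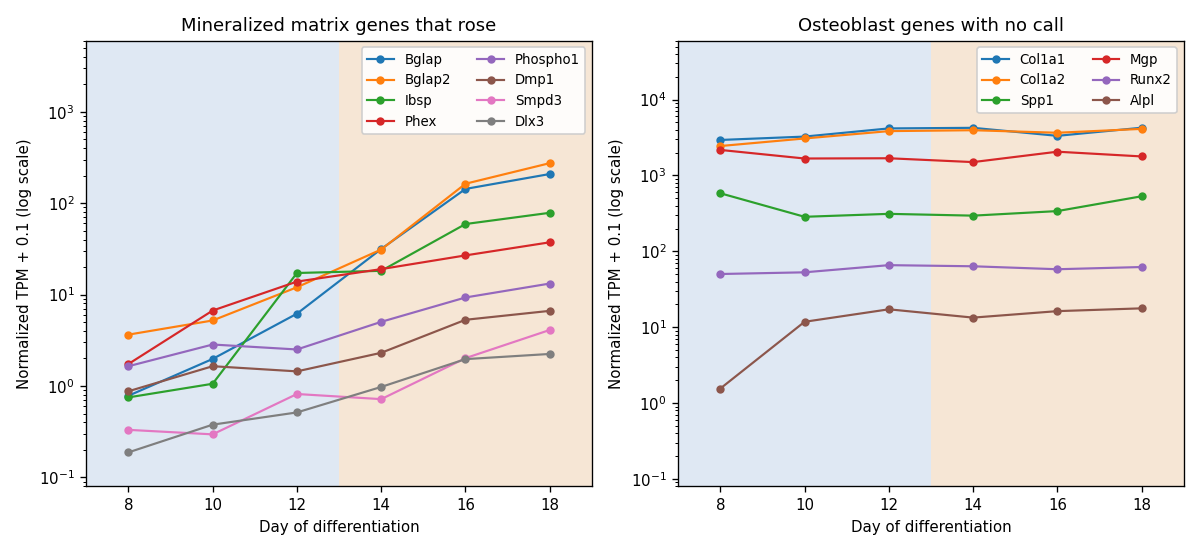
Normalized TPM plus 0.1 (y axis, log scale) of bone genes by day of differentiation (x axis), 1 point per library, with the middle days on blue and the late days on orange ground. The 8 genes on the left rose with day, Bglap from 0.682 to 208 TPM, while the 6 on the right were not called.

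Other defining osteoblast genes were not called in either edgeR test. Of the 10 osteoblast markers, 5 rose in the line test, and 6 did with TMM factors, in DESeq2's line test or without day 8. Col1a1, the main chain of type I collagen, was at 2939.5, 3256 and 4174 TPM on days 8, 10 and 12 and 4249, 3331 and 4263 TPM on days 14, 16 and 18, with a late minus middle difference of 0.15 ± 0.16. Col1a2, its partner chain, was at 3122 ± 701 TPM (SD, n = 3) on days 8 to 12 and 3908 ± 231 TPM (SD, n = 3) on days 14 to 18. Spp1, osteopontin, was at 583, 285 and 312 TPM on days 8, 10 and 12 and 295, 339 and 532 TPM on days 14, 16 and 18, with its highest values at both ends. Alpl, the alkaline phosphatase of osteoblasts, was at 1.45, 11.7 and 17.1 TPM on days 8, 10 and 12 and 13.3, 16.2 and 17.6 TPM on days 14, 16 and 18, low on day 8 and similar from day 10 on. Mgp, an inhibitor of calcification, was at 1844 ± 284 TPM (SD, n = 3) on days 8 to 12 and 1781 ± 278 TPM (SD, n = 3) on days 14 to 18. These values overlap between the periods, and failing the threshold does not show that the levels were equal.

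Among 14 osteoblast transcription factors, all tested, 3 rose and 1 fell, and these 4 calls held with each day left out. Over all tested genes, 8.32% rose and 7.99% fell. In DESeq2's line test 5 rose. Runx2, the master regulator of the lineage, was at 50.2 to 65.7 TPM on days 8 to 12 and 58.0 to 63.4 TPM on days 14 to 18 and was not called. Sp7, osterix, which acts downstream of Runx2, was at 2.77, 3.27 and 7.06 TPM on days 8, 10 and 12 and 6.66, 7.56 and 10.6 TPM on days 14, 16 and 18, a difference of 0.86 ± 0.31 (line's adjusted p 0.00364). Over all 9 days of the series, its fitted line had the other sign (-0.77, adjusted p 0.233). Dlx3, a homeobox factor of late osteoblasts, was at 0.0878, 0.278 and 0.414 TPM on days 8, 10 and 12 and 0.876, 1.87 and 2.14 TPM on days 14, 16 and 18 (line's adjusted p 0.00224). Creb3l1, which drives collagen secretion, was at 88.6 ± 21.2 TPM (SD, n = 3) on days 8 to 12 and 130.3 ± 12.6 TPM (SD, n = 3) on days 14 to 18 (line's adjusted p 0.0119). Msx2, a homeobox factor of calvarial progenitors, fell from 54.4 TPM on day 8 to 19.5 on day 10 and 12.9 on day 18 (line's adjusted p 0.0124).

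Genes of the vitamin K pathway, which carboxylates osteocalcin, were among the rises. Vkorc1, the reductase that regenerates vitamin K, was at 181, 247 and 339 TPM on days 8, 10 and 12 and 431, 416 and 439 TPM on days 14, 16 and 18 (line's adjusted p 0.0071). Gas6, another vitamin K-dependent protein and a ligand of Axl receptors, was at 213, 409 and 605 TPM on days 8, 10 and 12 and 722, 801 and 893 TPM on days 14, 16 and 18 (line's adjusted p 0.00489). Both had late libraries above all middle ones. Ggcx, the carboxylase itself, was at 31.1 ± 5.16 TPM (SD, n = 3) on days 8 to 12 and 38.7 ± 1.58 TPM (SD, n = 3) on days 14 to 18, and its line's adjusted p of 0.0492 was lost whichever of the 6 days was left out (up to 0.259, without day 8). With Bglap and Bglap2, 5 of the 6 tested genes in this list of 7 rose.

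Among the proteoglycans that coat collagen fibrils, rises were common. Of 13 small leucine-rich proteoglycans, all tested, 10 rose and 0 fell, with a median difference of 0.60. For 11 of them the late libraries lay above the middle ones, against 13% of all tested genes. The number that rose was 6 without day 14, 6 without day 16 and 6 without day 18, and 4 of the 10 calls held with each of the 6 days left out. Omd, osteomodulin, which binds hydroxyapatite, was at 9.11 TPM on day 8, 16.8 and 27.7 on days 10 and 12, and 42.7, 66.1 and 71.7 on days 14, 16 and 18 (difference 1.71 ± 0.36, line's adjusted p 0.000254). Chad, chondroadherin, was at 0, 0.524 and 0.214 TPM on days 8, 10 and 12 and 1.81, 1.96 and 11.9 TPM on days 14, 16 and 18, and its line's adjusted p of 0.00335 became 0.0767 without day 18. Ecm2, an adhesive matrix protein, was at 7.94, 16.6 and 27.7 TPM on days 8, 10 and 12 and 36.2, 37.2 and 47.9 TPM on days 14, 16 and 18 (line's adjusted p 0.00337). Dcn, decorin, which binds collagen fibrils, was at 565, 1467 and 2142 TPM on days 8, 10 and 12 and 2420.3, 2356 and 2652 TPM on days 14, 16 and 18, so most of its increase lay inside the middle period. Its line's adjusted p of 0.0339 became 0.0718 without day 16 and was also lost without day 14. Bgn, biglycan, was at 2735 ± 318 TPM (SD, n = 3) on days 8 to 12 and 3441 ± 213 TPM (SD, n = 3) on days 14 to 18, with late libraries above the middle ones, and was not called.

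Of 11 fibrillar collagens, 3 rose and 1 fell, against 8.32% rising and 7.99% falling over all tested genes. When day 8 was left out 3 fell, and 5 rose in DESeq2's line test. Col24a1, a minor fibrillar chain of bone, was at 0.969, 3.99 and 5.92 TPM on days 8, 10 and 12 and 7.94, 9.80 and 7.47 TPM on days 14, 16 and 18, and Col11a2, a chain of type XI collagen, was at 0.970, 1.10 and 1.46 TPM on days 8, 10 and 12 and 2.46, 6.55 and 5.18 TPM on days 14, 16 and 18 (line's adjusted p 0.00177 and 0.00224). Col3a1, a chain of soft tissue fibrils, was at 929 to 1381 TPM on days 8 to 12 and 1397 to 1479.5 TPM on days 14 to 18, with a line's adjusted p of 0.0385 that was lost when any day but day 12 was left out (up to 0.0908 without day 8). Col2a1, the collagen of cartilage, fell from 87.5 TPM on day 8 to 47.8 on day 18 (line's adjusted p 0.00678). Among 24 genes of collagen folding and crosslinking, 5 rose and 3 fell, a mixed list whose median difference was 0.12. The 5 rises were 3 without day 14, day 16 or day 18, and the 3 falls were 0 without day 8, 1 without day 14 and 1 without day 16. Plod2, the lysyl hydroxylase of collagen telopeptides that sets the crosslink type of bone, was at 353, 391 and 512 TPM on days 8, 10 and 12 and 667, 698 and 877 TPM on days 14, 16 and 18 (difference 0.77 ± 0.16, line's adjusted p 0.000599). P4ha1, a prolyl hydroxylase subunit, was at 35.7 to 41.7 TPM on days 8 to 12 and 36.2 to 40.8 TPM on days 14 to 18 and was not called.

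Among 16 elastic fibre genes, 5 rose and 2 fell, against 8.32% rising and 7.99% falling over all tested genes. The rises were 3 without day 16 and the falls 1 without day 14 or day 16. Mfap4, a microfibril-associated glycoprotein, was at 465, 422 and 683 TPM on days 8, 10 and 12 and 1091, 1033 and 1465 TPM on days 14, 16 and 18 (difference 1.15 ± 0.19, line's adjusted p 0.00176). Mfap5, which binds fibrillin, was at 346 ± 160.2 TPM (SD, n = 3) on days 8 to 12 and 663 ± 58.4 TPM (SD, n = 3) on days 14 to 18 (line's adjusted p 0.00346). Fbln2, a fibulin of microfibrils, fell from 312 TPM on day 8 to 178 on day 18 (line's adjusted p 0.00581), while Fbn1, fibrillin itself, was at 134 to 159.6 TPM on days 8 to 12 and 135 to 151 TPM on days 14 to 18 and was not called. Of 14 tested metalloproteinases and inhibitors, 5 rose and 0 fell, with 1 fall when day 12 or day 18 was left out and 8 rises and 1 fall in DESeq2's line test. Timp3, a matrix-bound inhibitor of metalloproteinases, was at 286, 377 and 540.3 TPM on days 8, 10 and 12 and 666, 723 and 749.9 TPM on days 14, 16 and 18 (line's adjusted p 0.00217). Mmp2, a gelatinase, was at 413 ± 71.0 TPM (SD, n = 3) on days 8 to 12 and 498 ± 4.67 TPM (SD, n = 3) on days 14 to 18, with late libraries above the middle ones, and was not called.

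Signalling genes moved in both directions. In the Wnt pathway, which promotes bone formation, Sfrp4, a secreted decoy for Wnt ligands, was at 2.00 TPM on day 8, 4.97 and 8.62 on days 10 and 12, and 16.3, 25.7 and 43.0 on days 14, 16 and 18. It differed by 2.37 ± 0.52 between the periods and had a line's adjusted p of 6.62e-05. Dkk1, an inhibitor of the Wnt co-receptors, was low at 0.0687, 0.0633 and 0.177 TPM on days 8, 10 and 12 and 0.367, 1.05 and 1.47 TPM on days 14, 16 and 18 and also rose (line's adjusted p 0.00271). Sostdc1, which blocks Wnt and BMP signals, fell from 8.81 TPM on day 8 to 2.20 on day 18 (line's adjusted p 0.00436). Of 9 tested secreted antagonists, 2 rose (4 in DESeq2's line test, 1 under the stricter count filter) and 2 fell, and the second fall, that of Dkk2, a relative of Dkk1, was lost without day 8 (adjusted p 0.138), day 10 or day 16. Among 11 tested Wnt feedback targets, 4 rose and 0 fell. Apcdd1, a membrane inhibitor of Wnt signals, was at 1.15, 1.07 and 2.02 TPM on days 8, 10 and 12 and 3.91, 4.68 and 4.93 TPM on days 14, 16 and 18, and Lgr5, the R-spondin receptor, was at 20.7, 56.4 and 97.0 TPM on days 8, 10 and 12 and 115, 116 and 150.5 TPM on days 14, 16 and 18 (line's adjusted p 0.0037 and 0.0125). Axin2, the most used Wnt target, was at 3.44 to 4.20 TPM on days 8 to 12 and 3.32 to 3.77 TPM on days 14 to 18 and was not called.

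Among 18 tested genes of bone morphogenetic protein (BMP) signalling, 4 rose and 0 fell, with 7 rises under the stricter count filter and 8 in DESeq2's line test. Bmp3, a ligand that restrains bone formation, was at 1.44, 1.86 and 1.81 TPM on days 8, 10 and 12 and 2.26, 5.10 and 6.59 TPM on days 14, 16 and 18 (line's adjusted p 0.00595), and Id2, a target of BMP signals, was at 34.3 ± 13.1 TPM (SD, n = 3) on days 8 to 12 and 54.1 ± 7.42 TPM (SD, n = 3) on days 14 to 18 (line's adjusted p 0.0101). Bmp2, the osteogenic ligand, was at 1.41 to 1.64 TPM on days 8 to 12 and 2.40 to 3.23 TPM on days 14 to 18, with a line's adjusted p of 0.0376 that became 0.152 without day 18 and was also lost without day 8, 10 or 16. In the insulin-like growth factor (IGF) group, all 10 genes were tested, 4 rose and 2 fell. Igfbp6, a binding protein that prefers IGF2, was at 16.7, 15.5 and 28.6 TPM on days 8, 10 and 12 and 29.7, 37.9 and 49.1 TPM on days 14, 16 and 18, and Igfbp4, which withholds IGFs from their receptor, was at 161, 397 and 695 TPM on days 8, 10 and 12 and 825, 848 and 1079 TPM on days 14, 16 and 18 (line's adjusted p 0.00198 and 0.0152). Both receptors fell. Igf1r, the signalling receptor, was at 20.2, 14.5 and 16.4 TPM on days 8, 10 and 12 and 14.5, 10.7 and 10.9 TPM on days 14, 16 and 18, and Igf2r, the receptor that clears IGF2, was at 72.2, 54.1 and 51.7 TPM on days 8, 10 and 12 and 50.6, 31.7 and 26.7 TPM on days 14, 16 and 18 (line's adjusted p 0.00597 and 0.000202). These falls held with each of the 6 days left out, while the 4 rises were 2 without day 18. Of 10 tested Notch genes, 1 rose, the Notch target Heyl at 2.07 to 2.62 TPM on days 8 to 12 and 3.54 to 6.98 TPM on days 14 to 18 (line's adjusted p 0.00317), and 1 fell, the receptor Notch2, a call lost without day 10, 14, 16 or 18 (adjusted p up to 0.124). Without day 8 the falls were 2, and without day 18 the rises were 2, as they were with TMM factors (3 in DESeq2's line test). The 1 rise and 1 fall of 10 are near the shares over all tested genes (8.32% rising and 7.99% falling).

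Genes by which osteoblasts support osteoclasts did not move together. Tnfsf11, the osteoclast differentiation factor RANKL, was at 0.845 to 2.52 TPM on days 8 to 12 and 0.870 to 1.53 TPM on days 14 to 18, and Tnfrsf11b, its decoy receptor osteoprotegerin, was at 7.47 to 10.8 TPM on days 8 to 12 and 6.20 to 11.5 TPM on days 14 to 18, and neither was called. Ptgs2, the inducible cyclooxygenase of prostaglandin synthesis, fell from 35.6 TPM on day 8 to 3.74 on day 10 and 1.81 on day 18 (line's adjusted p 0.0089). Il34, the other ligand of the receptor Csf1r, was at 10.3, 14.8 and 17.2 TPM on days 8, 10 and 12 and 13.2, 19.2 and 25.6 TPM on days 14, 16 and 18 and rose (line's adjusted p 0.00292). Both calls held with each day left out.

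Lipid droplet and adipokine genes were low on days 8 and 10 and rose, with higher levels from day 12 on. Adipoq, the adipokine adiponectin (chromosome 16, 23146609 to 23158101, plus strand), was at 0.388 TPM on day 8, 1.13 and 17.0 on days 10 and 12, and 39.6, 74.7 and 92.0 on days 14, 16 and 18. Fabp4, the fatty acid-binding protein of adipocytes, was at 1.49 TPM on day 8, 4.43 and 48.3 on days 10 and 12, and 91.5, 189 and 198 on days 14, 16 and 18. On the log scale the largest step of both was from day 10 to day 12, and their late libraries lay above all middle ones. Their late minus middle differences were 3.45 ± 1.01 and 3.06 ± 0.96 (line's adjusted p 0.00295 and 0.00346). Cfd, the adipocyte-secreted complement factor adipsin, was at 0.150, 0 and 1.74 TPM on days 8, 10 and 12 and 7.71, 28.2 and 35.1 TPM on days 14, 16 and 18, the third largest rise among the called genes that averaged at least 10 TPM and had periods that did not overlap (line's adjusted p 0.000907). Of 9 tested lipid droplet and adipokine genes in a list of 12, 8 rose, and these calls held with each day left out. The summed level of the 12 genes was 3.17 to 109 TPM on days 8 to 12 and 207 to 477 TPM on days 14 to 18.

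Fewer calls among the adipocyte transcription factors held. Pparg, the nuclear receptor that commands adipogenesis, was at 4.24, 13.5 and 27.3 TPM on days 8, 10 and 12 and 28.6, 31.6 and 35.1 TPM on days 14, 16 and 18, so that its increase lay mainly before day 12, and its line's adjusted p of 0.0268 became 0.0659 without day 16 and was also lost without day 10. Nr1h3, the oxysterol receptor LXR alpha, was at 1.73, 1.88 and 3.07 TPM on days 8, 10 and 12 and 3.37, 6.15 and 6.14 TPM on days 14, 16 and 18 (line's adjusted p 0.00465). Of 9 adipocyte transcription factors 5 rose, with 3 rises without day 14 and 1 without day 16. Of 22 genes of fatty acid and triglyceride metabolism, 12 rose and 2 fell, and the falls were 1 without day 8 or day 16. Pnpla2, the lipase that opens triglyceride breakdown, was at 9.59 TPM on day 8, 12.6 and 25.0 on days 10 and 12, and 35.8, 51.7 and 76.2 on days 14, 16 and 18 (difference 1.75 ± 0.37, line's adjusted p 3.27e-05). Acsl1, which activates fatty acids, was at 23.1, 35.2 and 68.4 TPM on days 8, 10 and 12 and 123, 147 and 191 TPM on days 14, 16 and 18, and Dgat2, which makes triglycerides, was at 2.57, 2.51 and 7.96 TPM on days 8, 10 and 12 and 13.7, 16.1 and 22.6 TPM on days 14, 16 and 18 (line's adjusted p 0.000397 and 0.00102). Fasn, the fatty acid synthase, was at 25.1 to 34.1 TPM on days 8 to 12 and 24.5 to 26.9 TPM on days 14 to 18 and was not called. Car3, a carbonic anhydrase abundant in adipocytes and muscle, was at 1.39, 5.01 and 45.1 TPM on days 8, 10 and 12 and 150.3, 256 and 437 TPM on days 14, 16 and 18 (line's adjusted p 0.00107).

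Most macrophage genes rose, with their highest levels on day 18. Lyz2, the lysozyme of myeloid cells, was at 62.2 TPM on day 8, 172 and 421 on days 10 and 12, and 485, 813 and 1855 on days 14, 16 and 18. Its late minus middle difference was 2.25 ± 0.70, its line's adjusted p was 0.000281, and its day 18 value was the highest of the 6. Csf1r, the receptor that macrophages need for survival, was at 1.10, 1.75 and 2.88 TPM on days 8, 10 and 12 and 3.67, 7.04 and 14.9 TPM on days 14, 16 and 18, and Itgam, the integrin chain CD11b, was at 0.438, 0.706 and 2.00 TPM on days 8, 10 and 12 and 2.41, 4.87 and 7.41 TPM on days 14, 16 and 18 (line's adjusted p 0.0002 and 9.92e-05). Laptm5, a lysosomal protein of blood cells, was at 4.10, 8.35 and 25.4 TPM on days 8, 10 and 12 and 37.3, 56.2 and 171 TPM on days 14, 16 and 18, and Emr1, the surface antigen F4/80, was at 0.494, 1.13 and 3.14 TPM on days 8, 10 and 12 and 3.00, 6.73 and 17.2 TPM on days 14, 16 and 18 (line's adjusted p 0.000254 and 0.000821). Of 18 tested members in a list of 19, 15 rose and 0 fell, 12 of them without day 18. For 14 members the late libraries lay above the middle ones, against 13% of all tested genes. The median difference of 2.22 was the second largest of the 33 lists. Cd163, a scavenger receptor of resident macrophages, was near 0 in all libraries (0.0813 to 0.183 TPM on days 8 to 12 and 0.0407 to 0.106 TPM on days 14 to 18), and Cd14, a co-receptor for endotoxin, was at 0.787 to 1.19 TPM on days 8 to 12 and 0.785 to 2.76 TPM on days 14 to 18, and neither was called. Lyz1, a copy of Lyz2 whose reads were shared with other genes, was at 0.150, 1.76 and 6.20 TPM on days 8, 10 and 12 and 16.3, 28.0 and 83.0 TPM on days 14, 16 and 18.

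Complement, lysosomal and osteoclast genes, part of which macrophages also make, are given next. C1qc, a chain of complement C1q made by macrophages, was at 1.85, 3.86 and 11.4 TPM on days 8, 10 and 12 and 19.4, 24.8 and 77.8 TPM on days 14, 16 and 18 (difference 2.78 ± 0.72, line's adjusted p 0.000193). Among 14 complement genes 11 rose and 0 fell, and the rises were 8 without day 14, day 16 or day 18. Members that other cells also make were among them. Serping1, the inhibitor of C1, was at 105, 292 and 478 TPM on days 8, 10 and 12 and 567, 629 and 757 TPM on days 14, 16 and 18 (line's adjusted p 0.00962), and it was named after its values were seen. Of 22 lysosomal genes 8 rose and 0 fell, 5 without day 8 or day 16, led by Ctsh, a cathepsin, at 106, 116 and 178 TPM on days 8, 10 and 12 and 238, 250.1 and 309.5 TPM on days 14, 16 and 18 (line's adjusted p 0.000409). Of 11 tested osteoclast effectors 4 rose and 1 fell, the rises being 2 without day 18 and the fall 0 without days 8, 12, 14 or 16. Acp5, the acid phosphatase of osteoclasts, was at 4.65 to 11.1 TPM on days 8 to 12 and 12.1 to 16.8 TPM on days 14 to 18 and rose (line's adjusted p 0.00961). Ctsk, the collagen-degrading cathepsin K, was at 93.2 to 168 TPM on days 8 to 12 and 192 to 199.6 TPM on days 14 to 18, and its line's adjusted p of 0.0173 became 0.0538 without day 16. In the same list, Dcstamp, needed for osteoclast fusion, Oscar, an osteoclast co-receptor, and Calcr, the calcitonin receptor, did not pass the filter. The osteoclast markers Mmp9 and Ocstamp were tested and not called. The fall was that of Tcirg1, with a difference of -0.75 ± 0.26 and late libraries below the middle ones (line's adjusted p 0.0359). Kit, a receptor of mast cells and progenitors, rose at a low level (0.0251 to 0.133 TPM on days 8 to 12 and 0.476 to 1.62 TPM on days 14 to 18, line's adjusted p 0.00265), but Cpa3, the mast cell carboxypeptidase, was at 0.164 to 0.547 TPM on days 8 to 12 and 0.141 to 0.910 TPM on days 14 to 18 and was not called. The 7 macrophage markers summed to 68.1 to 451 TPM on days 8 to 12 and 522 to 2014 TPM on days 14 to 18 and the 5 adipocyte markers to 6.51 to 103 TPM on days 8 to 12 and 188 to 407 TPM on days 14 to 18. Lyz2, whose reads were shared with other genes, made up most of the macrophage sum in every library. That sum says little about the other macrophage markers. Both sums were higher in all late libraries, as were many genes of the rising groups, and their part in those results was not tested.

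**Figure D3:**
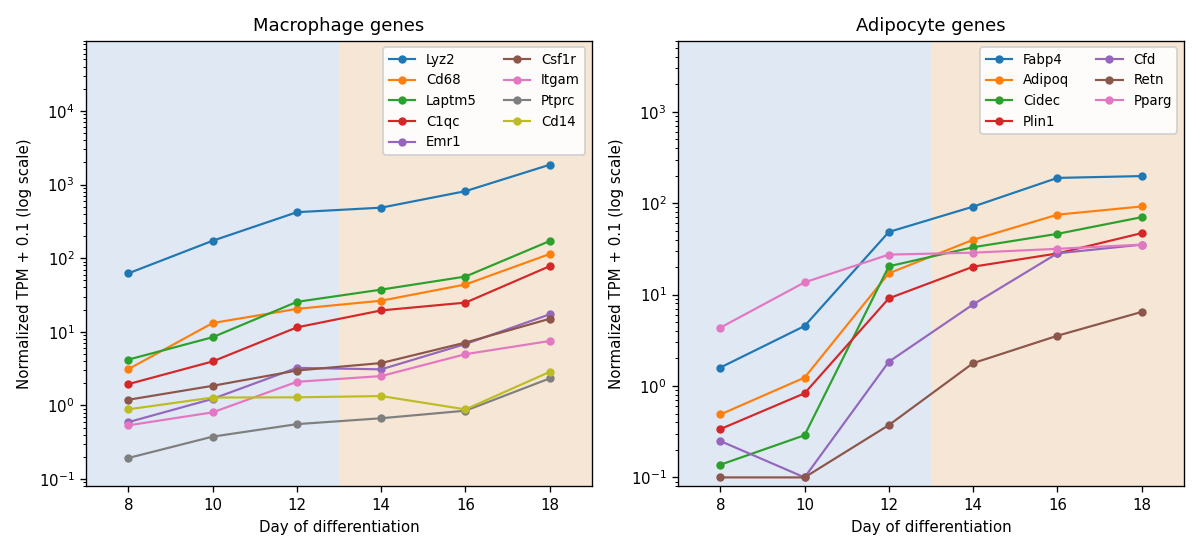
Normalized TPM plus 0.1 (y axis, log scale) by day of differentiation (x axis), 1 point per library, for macrophage genes on the left and adipocyte genes on the right, with the middle days on blue and the late days on orange ground. Lyz2 climbed from 62.2 to 1855 TPM, and Adipoq and Cidec, a lipid droplet protein, were below 2 TPM until day 10.

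Antioxidant and circadian clock genes were also compared. Of 16 antioxidant genes, 6 rose and 1 fell, and all 7 calls held with each day left out. Gstm1, a glutathione transferase, was at 266, 299 and 483 TPM on days 8, 10 and 12 and 605, 608 and 888 TPM on days 14, 16 and 18, and Sod3, the extracellular superoxide dismutase, was at 19.4, 29.5 and 45.6 TPM on days 8, 10 and 12 and 55.0, 50.5 and 77.0 TPM on days 14, 16 and 18 (line's adjusted p 0.00067 and 0.00258). Hmox1 and Nqo1, the standard targets of the stress factor Nrf2, were at 108 to 146 TPM on days 8 to 12 and 128 to 154 TPM on days 14 to 18 and at 12.2 to 26.3 TPM on days 8 to 12 and 11.4 to 14.9 TPM on days 14 to 18, and neither was called. Of 13 circadian clock genes 5 rose and 0 fell, and the rises were 3 without day 8, 10, 12, 14 or 16. Dbp, a clock output factor, was at 7.70, 6.93 and 13.6 TPM on days 8, 10 and 12 and 20.2, 23.4 and 33.4 TPM on days 14, 16 and 18, and Per3, a period gene, was at 5.80 to 10.9 TPM on days 8 to 12 and 11.5 to 14.3 TPM on days 14 to 18 (line's adjusted p 0.00177 and 0.00846). Arntl, the core activator, was at 4.13 to 6.75 TPM on days 8 to 12 and 4.95 to 5.14 TPM on days 14 to 18 and was not called, and the hour of collection was not given in the labels. Among the 15 largest rises outside the lists were Dio2, the deiodinase that activates thyroid hormone, at 3.45, 10.2 and 16.7 TPM on days 8, 10 and 12 and 43.2, 74.3 and 143 TPM on days 14, 16 and 18, Scg2, a granule protein of secretory cells, at 0.556, 4.57 and 14.7 TPM on days 8, 10 and 12 and 35.5, 52.3 and 81.7 TPM on days 14, 16 and 18, and Cyp2f2, a cytochrome P450, at 1.10, 3.03 and 8.39 TPM on days 8, 10 and 12 and 11.6, 23.7 and 54.9 TPM on days 14, 16 and 18. The largest rise of all was Gm525, a predicted protein-coding gene on chromosome 11 (88935155 to 88954354), at 0.181, 0.480 and 1.34 TPM on days 8, 10 and 12 and 12.0, 32.5 and 47.4 TPM on days 14, 16 and 18 (difference 5.31 ± 0.72, line's adjusted p 0.000884).

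Genes of DNA replication and mitosis fell almost without exception. Of 25 genes, all tested, 24 fell and 0 rose, and the median difference was -1.10. For 16 of them the late libraries lay below the middle ones, against 13.9% of all tested genes. Mki67, the standard marker of cycling cells, was at 55.0 TPM on day 8, 29.3 and 19.4 on days 10 and 12, and 16.2, 15.2 and 13.3 on days 14, 16 and 18 (difference -1.28 ± 0.35, line's adjusted p 0.00295). Top2a, the topoisomerase of dividing cells, was at 76.7, 41.5 and 26.2 TPM on days 8, 10 and 12 and 20.5, 20.2 and 16.5 TPM on days 14, 16 and 18, and Cdk1, the kinase that starts mitosis, was at 66.9, 35.1 and 21.7 TPM on days 8, 10 and 12 and 22.9, 19.0 and 19.0 TPM on days 14, 16 and 18 (line's adjusted p 0.00392 and 0.0037). Rrm1, a subunit of the enzyme that makes deoxynucleotides, was at 43.0 ± 12.1 TPM (SD, n = 3) on days 8 to 12 and 26.7 ± 3.35 TPM (SD, n = 3) on days 14 to 18 (line's adjusted p 0.00194). When day 8 was left out, 12 of the 25 genes fell. From day 12 to day 18 the median change was -0.44, against -1.54 from day 8 to day 12. Of 12 inhibitors of cyclin-dependent kinases and p53 targets, 2 rose and 3 fell, against 8.32% rising and 7.99% falling over all tested genes. The rises were 1 without day 10, 12, 14 or 18, and the falls 1 without day 14 or day 16. Cdkn1a, a cell cycle inhibitor and p53 target, was at 1223, 673 and 693 TPM on days 8, 10 and 12 and 683, 516 and 634 TPM on days 14, 16 and 18 and fell, with a line's adjusted p of 0.0313 that became 0.196 without day 8 and was also lost without day 14 or 16. Hmga2, a chromatin protein of growing embryonic cells, was at 44.4, 14.1 and 8.57 TPM on days 8, 10 and 12 and 5.19, 4.53 and 4.40 TPM on days 14, 16 and 18 (line's adjusted p 0.00267).

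Interferon-stimulated genes had the lowest median difference of the lists, -1.79. Of 16 genes 13 fell and 0 rose, and 11 fell when day 8 was left out. Isg15, a ubiquitin-like modifier, was at 306 TPM on day 8, 69.8 and 38.5 on days 10 and 12, and 34.0, 13.5 and 26.7 on days 14, 16 and 18. Ifit1, which binds foreign RNA, was at 216 TPM on day 8, 76.9 and 52.8 on days 10 and 12, and 31.6, 17.4 and 33.3 on days 14, 16 and 18. Bst2, the membrane tether of enveloped viruses, was at 395, 156 and 109 TPM on days 8, 10 and 12 and 78.2, 63.8 and 49.6 TPM on days 14, 16 and 18, and Ifi44, an interferon-induced protein, was at 63.1, 15.7 and 11.0 TPM on days 8, 10 and 12 and 5.16, 6.37 and 5.05 TPM on days 14, 16 and 18. Their differences were -2.55 ± 0.76, -2.13 ± 0.53, -1.85 ± 0.46 and -2.90 ± 0.64, and the line's adjusted p was 0.00773, 0.00831, 0.000907 and 0.00134. On day 2, before the compared days, Isg15 stood at 4.97 TPM, and the late days were not its lowest of the series. Ifit2, a relative of Ifit1, was at 11.3 to 12.3 TPM on days 8 to 12 and 8.78 to 11.7 TPM on days 14 to 18 and was not called. Of the 15 largest falls, 7 were in this list, and Zbp1, Rtp4 and Ifi27l2a, known to be induced by interferon, were among the other 8. Zbp1, a sensor of unusual nucleic acids, was at 35.9, 8.50 and 7.68 TPM on days 8, 10 and 12 and 2.28, 4.10 and 2.19 TPM on days 14, 16 and 18 (line's adjusted p 0.00224). Of 10 genes of antigen presentation by MHC class I and II, 1 rose and 1 fell, and the rise, of H2-Ab1, was lost in every fit without 1 day but that without day 12. Without day 8 the falls were 2. The 1 rise and 1 fall of 10 are near the shares over all tested genes (8.32% rising and 7.99% falling).

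The promoters of many interferon-stimulated genes held a known letter pattern, which is shown as a description. These genes were listed for their known response to interferon, so the share with the pattern says nothing about their fall. The interferon-stimulated response element has the core GAAANNGAAA, where N is any base. It was searched on both strands in the 250 bases before each RefSeq start of GRCm38.p6. It was found for 7 of the 12 list members that had a window (58.3%), against 936 of 27025 genes in the table (3.46%) and 324 of the 10082 tested genes with a window (3.21%). The stretches below lie at chr4:156200855-156200904 (minus strand) for Isg15, chr19:34640784-34640833 (plus strand) for Ifit1 and chr8:71537567-71537616 (minus strand) for Bst2, and capitals mark the matches, which read as the reverse complement where they lie on the other strand and are joined where they overlap.
Isg15: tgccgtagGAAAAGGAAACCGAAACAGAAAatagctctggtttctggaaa
Ifit1: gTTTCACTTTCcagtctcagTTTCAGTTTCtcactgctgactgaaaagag
Bst2: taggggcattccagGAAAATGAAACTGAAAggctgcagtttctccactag
A match is a description of these letters and not a site shown to be bound. No core was found in the windows of Irf7, Oasl2, Ifi44, Ifit2 and Ddx58.

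Many replication and mitosis genes held another letter pattern, the CCAAT box. It was found for 17 of their 21 genes with a window (81%), against 37.5% of all genes in the table and 40.7% of the tested genes. The letters TTTGAA of the cell cycle homology region were found for 6 of the 21 (28.6%), against 18.3% of all genes and 12.7% of the tested ones. Stretches are shown for 2 of the genes described above, at chr10:69352936-69352980 (minus strand) for Cdk1 and chr11:99024223-99024267 (minus strand) for Top2a, with CCAAT or its complement ATTGG in capitals.
Cdk1: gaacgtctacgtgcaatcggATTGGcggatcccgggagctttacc
Top2a: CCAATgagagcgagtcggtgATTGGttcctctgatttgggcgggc
The 12 cholesterol synthesis genes with a window all held a CCAAT box. For comparison, the core letters GAGGAAGT of a PU.1 site, the factor of myeloid cells, were found for 1 of 14 macrophage genes (7.14%), against 2.79% of all genes. TGTGGT was found for 3 of 10 SIBLING and osteocyte genes and 2 of 7 mineral handling genes. These motifs were chosen with the expression results known, and none was tested.

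Cholesterol synthesis genes fell. Of 17 tested genes in a list of 18, 13 fell and 0 rose, 7 without day 8 and 8 without day 16, and the median difference was -0.69. Cyp51, a demethylase of lanosterol, was at 107, 59.3 and 57.1 TPM on days 8, 10 and 12 and 51.3, 36.1 and 34.4 TPM on days 14, 16 and 18, and Srebf2, the transcription factor of the pathway, was at 30.3 ± 3.84 TPM (SD, n = 3) on days 8 to 12 and 22.2 ± 1.82 TPM (SD, n = 3) on days 14 to 18 (line's adjusted p 0.00178 and 0.00436). Both calls were kept with each day left out.

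Contractile genes of smooth muscle, which mark myofibroblast-like cells, fell in part. Of 12 genes 7 fell and 0 rose, 4 without day 18. Acta2, smooth muscle actin, was at 1809, 1199.8 and 1124 TPM on days 8, 10 and 12 and 992, 853 and 868 TPM on days 14, 16 and 18 (difference -0.66 ± 0.20, line's adjusted p 0.00485). Cnn1, calponin, was at 66.9, 38.6 and 36.9 TPM on days 8, 10 and 12 and 29.7, 28.2 and 21.2 TPM on days 14, 16 and 18, and Actg2, an enteric actin, was at 293, 154 and 139.7 TPM on days 8, 10 and 12 and 119, 105 and 84.4 TPM on days 14, 16 and 18 (line's adjusted p 0.00156 and 0.00181). Single genes fell beside these groups. Crabp1, a retinoic acid-binding protein, was at 979 TPM on day 8, 669 and 497 on days 10 and 12, and 341, 235 and 133 on days 14, 16 and 18 (line's adjusted p 3.27e-05), a fall that went on through the late days. Kcnj15, a potassium channel, and Il1rl1, the receptor of interleukin-33, were at 57.1, 10.3 and 5.01 TPM on days 8, 10 and 12 and 2.53, 4.07 and 4.78 TPM on days 14, 16 and 18 and at 34.6, 12.0 and 8.80 TPM on days 8, 10 and 12 and 5.29, 7.99 and 4.75 TPM on days 14, 16 and 18 (line's adjusted p 0.00881 and 0.00608).

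**Figure D4:**
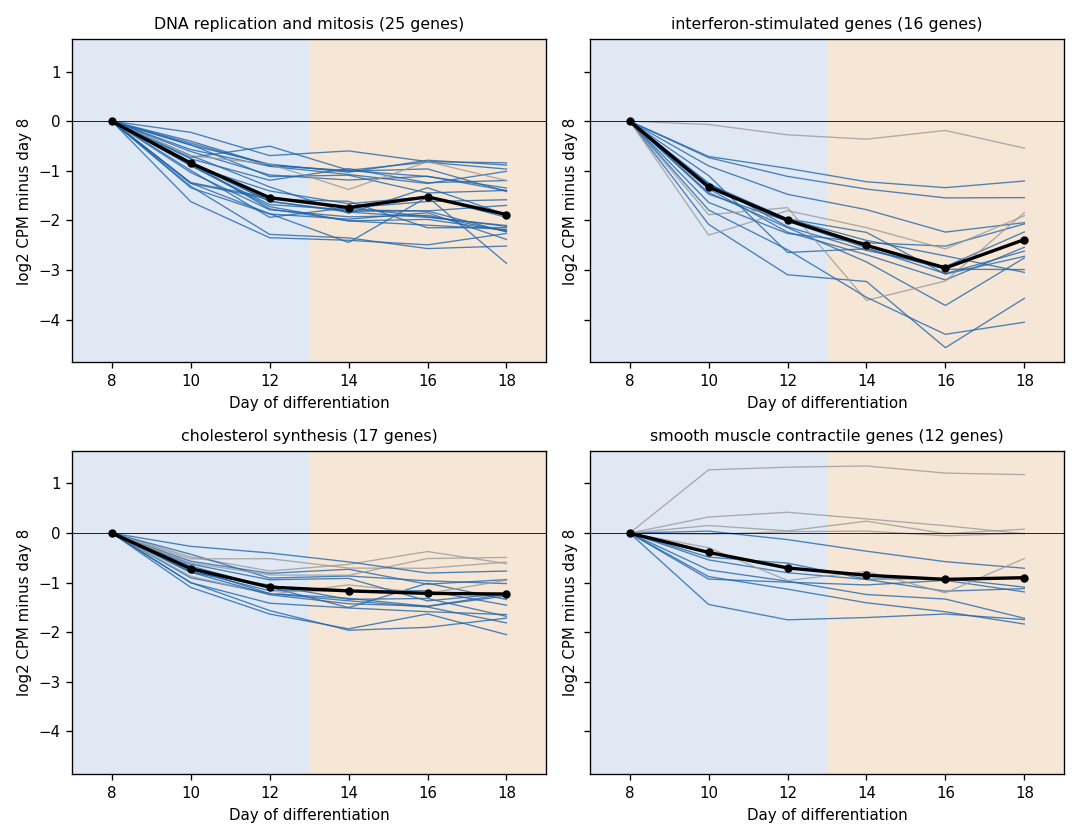
Log2 CPM (counts scaled to library size) relative to day 8 (y axis, with 0.05 added before the logarithm) by day of differentiation (x axis) for 4 lists with many falling genes, 1 line per tested gene and the list's median in black. Blue lines fell in the line test and grey lines were not called. In each of the 4 lists most of the drop of the median lay before day 12.

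Housekeeping lists were compared with the shares over all tested genes (8.32% rising and 7.99% falling). Of 25 nuclear respiratory chain subunits, 0 rose and 0 fell in edgeR's line test, with 1 fall under the stricter count filter, 0 calls by DESeq2 and a median difference of -0.09. In the test of periods 1 of them had an unadjusted p under 0.05. Of 18 endoplasmic reticulum folding genes 2 rose and 0 fell, and the rises were 0 without day 18. Hspa5, the main chaperone of that compartment, was at 681 to 823 TPM on days 8 to 12 and 736 to 846 TPM on days 14 to 18 and was not called. Of 17 glycolytic genes 1 rose and 3 fell, and the falls were 1 without day 8 or day 16. Slc2a1, the basal glucose transporter, was at 16.0, 12.3 and 12.1 TPM on days 8, 10 and 12 and 9.55, 9.59 and 8.34 TPM on days 14, 16 and 18 and fell, while Slc2a4, the insulin-responsive transporter of fat and muscle, was at 0.520, 0.663 and 0.947 TPM on days 8, 10 and 12 and 1.53, 3.03 and 2.85 TPM on days 14, 16 and 18 and rose (line's adjusted p 0.00659 and 0.00464).

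The timing of the changes was also compared. The change from day 8 to day 12 and that from day 12 to day 18 were taken from single libraries, and the second interval is the longer one. Among the 1266 genes that rose, the median log2 change was 0.91 from day 8 to day 12 and 0.60 from day 12 to day 18, and 412 of them (32.5%) moved more in the second interval. Among the 1216 that fell, the medians were -0.66 and -0.36, and 362 (29.8%) moved more after day 12. Over all 15210 tested genes, the signed change was greater in the second interval for 6783 (44.6%). That count takes no account of the direction in which a gene moved, so it is no baseline for these shares. The median size of change over all tested genes was 0.35 from day 8 to day 12 and 0.23 from day 12 to day 18. The SIBLING and osteocyte list changed more after day 12, by a median of 0.97 against 0.30 before it. Bglap changed by 3.65 before and 4.88 after day 12, and Phospho1 by 0.16 and 2.72. The proteoglycan list changed by 1.49 before and 0.36 after day 12. The macrophage list changed by 2.80 and 2.30, and the lipid droplet list by 4.84 and 2.08. Between days 12 and 14, across the boundary of the periods, the median size of change over all tested genes was 0.17. These are values of single days, with no error for any 1 day, and the difference between intervals was not tested.

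**Figure D5:**
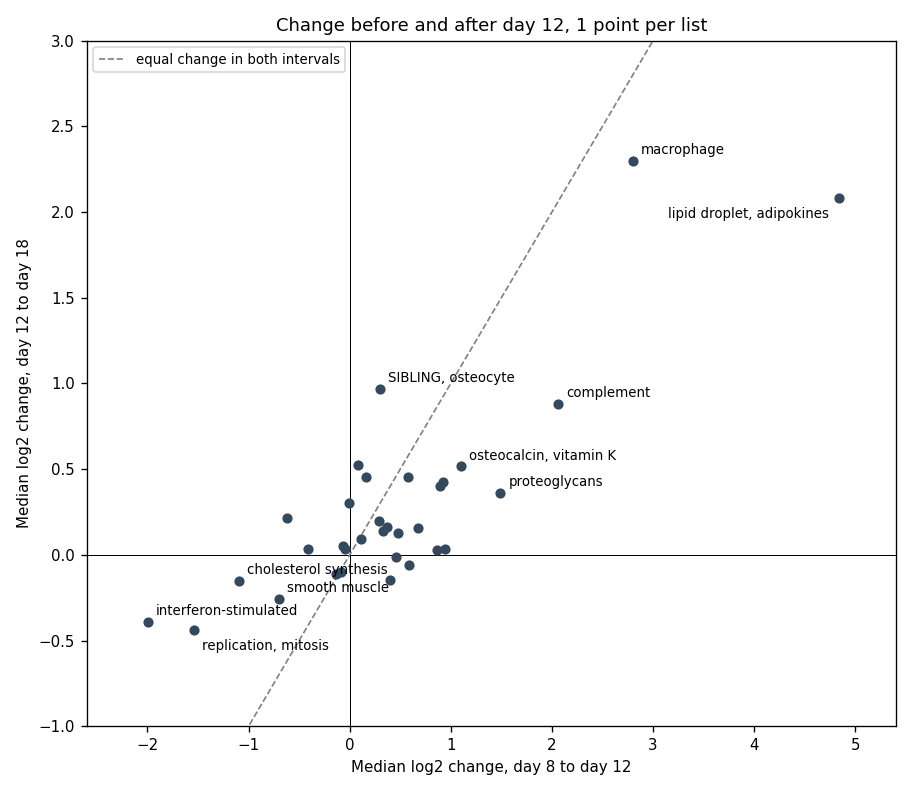
Median log2 change of each of 33 gene lists from day 8 to day 12 (x axis) and from day 12 to day 18 (y axis), 1 point per list, from CPM with 0.5 counts added. Points above the dashed line on the right side moved more after day 12, as the SIBLING and osteocyte list did (0.30 before and 0.97 after), while most moving lists, proteoglycans and replication among them, moved more before it.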

How the data were processed

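RNA from sorted calvarial osteoblasts was amplified with a NuGEN Ovation kit, made into libraries with an Illumina TruSeq kit and sequenced. Per the labels' processing notes, the authors aligned reads with Bowtie 0.12.9 to NCBIM37 and deposited expected counts per gene and TPM made with RSEM 1.2.8. The kit is not stated to mark strand, so overlapping antisense genes cannot be told apart. Of 37991 gene identifiers, 37205 had a symbol.

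From the deposited expected counts, the 3 profiles of a day were summed and rounded. In the 6 libraries they differed by no more than sampling noise (chi-square per degree of freedom 0.999 to 1.02), so each day counted as 1 sample. Genes passing edgeR's filter at a minimum count of 10 were tested (15210 genes) with edgeR 4.0.16 in R 4.3.3, using upper-quartile factors, a quasi-likelihood test and Benjamini-Hochberg adjustment. The first fit compared the periods as designed, and the second fitted a line in day. The deposited TPM were divided by the 75th percentile of each profile and scaled to the mean of the 27 percentiles, and they were used for description only. DESeq2 1.42.0 and limma 3.58.1 served as alternatives. On simulated counts with 200 changed genes, the test of periods recovered 57% of genes changed by 1 and 93% of those changed by 2 on the log2 scale, over 14961 genes. The line recovered 48% and 92% over 14950 genes. Of the genes called, 5.06% were unchanged in the simulation of the periods and 8.50% in that of the line. The simulated periods held no trend inside a period, unlike the real days, so their recovery does not carry over to the real libraries.

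The labels do not say that days came from separate animals, so p-values measure the spread between these libraries, which may be partly technical. The gene lists, the markers and the sequence motifs were chosen with earlier results of these data known. The rule for named genes took the 15 largest rises and falls among called genes that averaged at least 10 TPM and had periods that did not overlap, up to 5 called members of each list by smallest p, the first 2 of each list, and the markers. The test of periods called no gene, so the rule was read on the line's calls, a choice made after the data were seen. Serping1 and the other genes outside the rule were named after their values were seen. Some genes are not reported here. Promoter windows came from RefSeq (GRCm38.p6), by gene symbol, and coordinates of genes are those of NCBIM37.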

Additional observations from a re-analysis of the deposited data

How the results depend on the processing

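The number of genes called between the periods depended on the fit. It was 0 higher and 0 lower with TMM or RLE factors, with either other count filter, in the fit of 9 libraries in 3 periods, without any 1 of the 3 profiles of each day, with limma and a pseudocount of 1, and at an adjusted p under 0.01. Leaving out 1 day in turn gave 0 to 321 higher and 0 to 316 lower, the highest values without day 12. Days 8 and 10 against days 16 and 18 gave 27 higher and 1 lower, DESeq2 gave 434 and 330, limma with a pseudocount of 0.1 gave 2 and 0, and the line in day gave 1266 and 1216. Taking the 18 profiles as separate samples, which counts lanes as replicates, gave 2603 higher and 3261 lower, and 2398 and 3011 with the replicate block. Profiles with the same number did not deviate together (mean correlation 0.0107), so the numbers do not pair the samples.

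The alternatives for the line were chosen after the data were seen. Leaving out 1 day gave 790 to 1190 rising genes and 566 to 1022 falling genes. An adjusted p under 0.01 gave 470 and 332, the 18 profiles 3434 and 4040 (3311 and 3913 with the replicate block), and all 9 libraries 4424 and 4086. TMM factors, the stricter count filter and DESeq2 stayed within 1.5 times the main counts. Over a set of 96 called genes, 1113 gene and setting pairs kept the call, 34 lost it and 1 reversed. The set leaves out some of the calls described above as lost without 1 day, so it understates such losses. The reversal was that of Sp7, at -0.77 over days 2 to 18. Counts of list members moved by more than 1.5 times in 180 of 792 list and setting pairs. The cause of these changes was not tested. With 3 days in a period and 1 library a day, changes too small for 4 residual degrees of freedom were not detectable. The test of periods also counts any trend inside a period as scatter, and large differences such as that of Bglap were not called by it either.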

Other observations

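A few markers of other connective and neural cell types moved with day. S100b, a calcium-binding protein of glia that chondrocytes and adipocytes also make, was at 11.3, 19.7 and 31.2 TPM on days 8, 10 and 12 and 38.0, 42.8 and 47.8 TPM on days 14, 16 and 18, and it rose (edgeR line in day, Benjamini-Hochberg adjusted p 0.00315). Sox10 and Foxd3, which define glia and neural crest, did not pass the count filter. Of 5 tested chondrocyte markers 3 rose and 1 fell. The rises were 2 without day 10 and 1 without day 18, and the falls 2 without day 8. The summed level of all 6 was 129 to 136 TPM on days 8 to 12 and 101 to 128 TPM on days 14 to 18. Col2a1, the main collagen of cartilage, fell from 87.5 TPM on day 8 to 47.8 on day 18 (line's adjusted p 0.00678). Col9a1, a collagen that decorates cartilage fibrils, was at 1.00, 2.29 and 4.94 TPM on days 8, 10 and 12 and 6.16, 8.20 and 7.44 TPM on days 14, 16 and 18 (line's adjusted p 0.00825). Sox9, the master factor of chondrocytes, was at 47.0, 56.9 and 63.6 TPM on days 8, 10 and 12 and 60.3, 50.5 and 45.0 TPM on days 14, 16 and 18, with no call. Of 5 tested endothelial markers 0 rose and 0 fell in edgeR's line test, 1 rose in DESeq2's line test, and 0 had an unadjusted p under 0.05 between the periods in edgeR's test. Cdh5, an adhesion protein of vessels, was at 0.513, 1.46 and 2.61 TPM on days 8, 10 and 12 and 3.12, 2.68 and 2.28 TPM on days 14, 16 and 18.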
